A study of Mus musculus with 9 samples.

Results

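Integrins are cell-surface receptors made of 1 alpha and 1 beta chain, and 40 genes of integrin chains and of the adaptor proteins that tie them to actin were followed here in inflamed mouse skin. They were taken as the array features whose platform gene symbol is on a list of 18 matrix-binding integrin chains, 8 leukocyte integrin chains and 14 adaptors. Of these 40 genes, 37 were measured among 19505 named genes, each by 1 feature. Itga1, Itga10 and Ptk2 were not found under these symbols and are not analysed here.

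Outside the cell an integrin binds matrix proteins such as collagen, laminin and fibronectin, or a counter-receptor on another cell. Inside, talins and kindlins bind the tail of the beta chain and switch the receptor on, and vinculin, paxillin, zyxin and filamin link it to actin at the focal adhesion, where force on the matrix is passed to the cell. In skin, integrins hold basal keratinocytes to the basement membrane and fibroblasts to the dermal matrix, and they let leukocytes leave the blood.

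The arrays were Affymetrix, and the RNA came from the backs of C57BL/6J mice aged 8 weeks. All mice had hair removed and received 5% imiquimod (IMQ) cream daily for 7 days; imiquimod is a Toll-like receptor agonist that induces a psoriasis-like dermatitis. In the stretch group (n = 5 arrays, titled IMQ+F) a glued plastic device had been elongated by 10 mm on the first day, and the no-stretch group (n = 4 arrays, titled IMQ+N) had no stretch. The protocol text is shared by all samples and leaves unsaid whether the no-stretch mice wore the device. Which genes differ when the inflamed skin is stretched is the question of the comparison, and no skin without imiquimod was analysed here. The labels do not say that each array is a separate mouse, so p-values reflect only how these samples scatter, part of which may be technical.

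Values are log2 expression values, and a difference is the mean of the stretch arrays minus the mean of the no-stretch arrays. Over the whole platform limma called 48 genes (16 higher, 32 lower) at a Benjamini-Hochberg adjusted p under 0.05, which is 0.246% of the genes tested (0.082% higher, 0.164% lower). The labelled tissue showed its defining genes: the basal keratinocyte keratin Krt14 averaged 19.53 with stretch and 18.97 without, and the skeletal muscle actin Acta1 18.13 and 18.36, so muscle RNA was present in both groups. No-stretch replicate 3 stood apart, since its median correlation with the rest was the lowest of the 9 (r = 0.9749 across genes, against 0.980 to 0.987). It and stretch replicate 1 had the lowest array weights (0.579 and 0.547).

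None of the 37 measured genes passed the test over all genes; the smallest adjusted p was 0.165, for Itga7, whereas 1.08% of all genes were under 0.1. At an unadjusted p under 0.05 there were 10 genes, all of them higher with stretch, which is 27.0% of the 37. Among all genes 13.0% reached that level, 6.92% higher and 6.07% lower. These 10 were Itgb2 among the leukocyte integrins, Itga7, Itga2, Itga5, Itga6, Itga9, Itga3 and Itgb1 among the matrix-binding chains, and the kindlins Fermt3 and Fermt2 among the adaptors. In all, 27 of the 37 had a positive difference and 10 a negative one, with a median of 0.23, whereas over all genes the median was -0.003 and 49.6% were positive. In whole skin, a change in the number of cells of a type and a change in RNA per cell cannot be told apart.

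**Figure D1:**
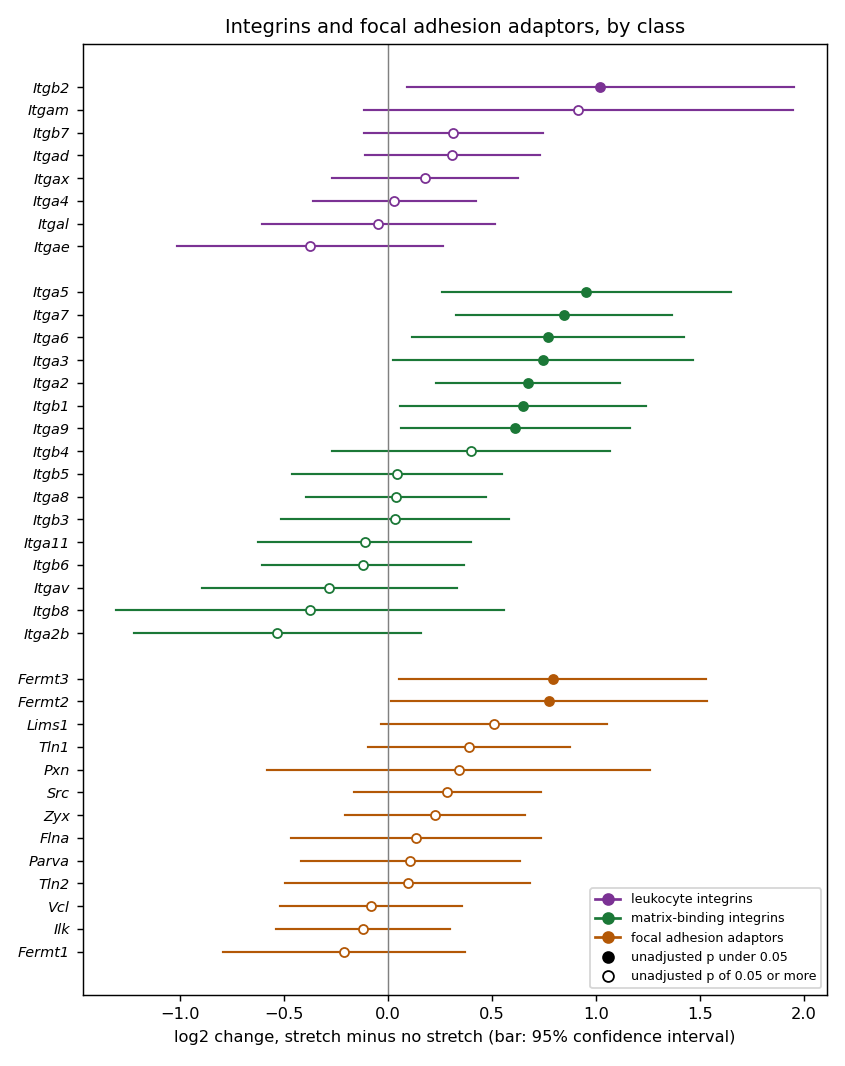
Log2 change, stretch minus no stretch (horizontal axis), for the 37 measured genes in 3 classes; points are differences of group means, bars 95% confidence intervals from limma, and filled points have an unadjusted p under 0.05. The 10 filled points all lie above 0, between 0.61 (Itga9) and 1.02 (Itgb2), and none passed after adjustment over all genes.

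How many genes reached that level depended on single arrays. All genes counted below were higher with stretch, and the share of all genes that reached the level in that direction is given beside each count. Without no-stretch replicate 3 the count was 3 (Itga2, Itga5 and Itga7; 4.67% of all genes), and without stretch replicate 4 it was 4 (5.79%). It was 5 without stretch replicate 1 (7.16%) or no-stretch replicate 1 (5.73%), 6 without stretch replicate 5 (6.52%) and 13 without stretch replicate 3 (7.45%). With arrays weighted by their quality it was 6 (6.95%), with both arrays of lowest weight left out 2 (5.17%), and with the replicate number as a block 12 (7.16%). Those arrays also held most of the extremes. No-stretch replicate 3 was the lowest of the 9 arrays for 18 of the 37 genes, against 16.8% of all genes, and stretch replicate 4 was the highest for 17 of the 37, against 12.0% of all genes. The median within-group SD of the 37 genes was 0.412, and 0.32 over all genes.

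**Figure D2:**
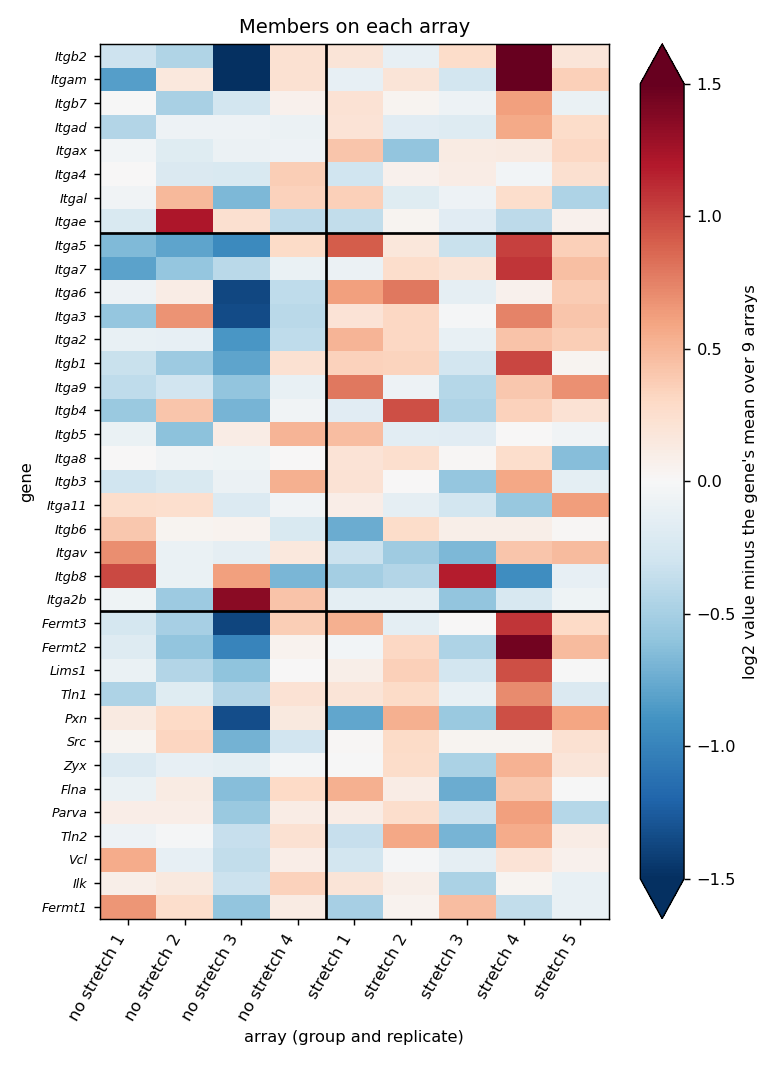
Each gene (row) on each array (column), as the log2 value minus the gene's mean over the 9 arrays; black lines separate the classes and the groups, and values beyond 1.5 share the end colours. The column of no-stretch replicate 3 is blue for most genes and holds the lowest value of 18, and the column of stretch replicate 4 is red for most and holds the highest value of 17.

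The matrix-binding chains held 7 of the 10 genes. Of the 16 measured chains 11 had a positive difference, with a median of 0.22. At an unadjusted p under 0.05 there were 7 of 16 (43.8%), all higher, against 13.0% of all genes (6.92% higher). By chain type, the 10 alpha chains had a median of 0.64, with 7 positive and 6 at that level, and the 6 beta chains a median of 0.04, with 4 positive and 1 at that level. The measured range was wide, from 0.95 for Itga5 to -0.53 for Itga2b. Without no-stretch replicate 3 only Itga2, Itga5 and Itga7 stayed at that level, where 4.67% of all genes were higher.

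The fibronectin receptor is made of the Itga5 and Itgb1 chains, and Itgb1 also pairs with most of the other alpha chains on this list. Itga5 was at 8.81, 8.07, 7.56, 8.92 and 8.25 on stretch arrays 1 to 5 and at 7.23, 7.11, 6.94 and 8.19 on no-stretch arrays 1 to 4. No-stretch replicate 4 lay within the stretch range, and the other 3 no-stretch arrays lay below all 5 stretch arrays. The difference was 0.95 (95% confidence interval 0.26 to 1.65), 1.94-fold, with limma adjusted p = 0.23. Itgb1 was at 15.88, 15.87, 15.26, 16.54 and 15.58 with stretch and at 15.20, 14.99, 14.75 and 15.76 without, which is the same arrangement. Its difference was 0.65 (0.06 to 1.24), 1.57-fold, with limma adjusted p = 0.34. Both chains were highest in stretch replicate 4 and lowest in no-stretch replicate 3. Endothelial markers, whose cells carry this receptor, were also highest and lowest on those arrays as a list, from -0.25 to 0.50 with stretch and from -0.51 to 0.25 without. Of the 7 markers 5 were positive. The 2 negative ones were Tek, at -0.84 (limma adjusted p = 0.0785, the smallest of the list), and Vwf, at -0.28. The part of endothelial cells in the values of Itga5 and Itgb1 was not tested.

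The promoters of this receptor's chains, and that of Tes, the focal adhesion gene described further on, are shown so that the receptor's chains can be read beside the pathway gene that rose. The promoters of Itga7, Itga6, Itgb2 and Fn1 were not used here. Each is the 250 bases before the annotated start in RefSeq on build GRCm38.p6, read along the gene's own strand, and capitals mark motif matches on either strand. Itga5 lies at chr15:103366792-103367041 on the minus strand, Itgb1 at chr8:128685404-128685653 on the plus strand and Tes at chr6:17064899-17065148 on the plus strand.
Itga5: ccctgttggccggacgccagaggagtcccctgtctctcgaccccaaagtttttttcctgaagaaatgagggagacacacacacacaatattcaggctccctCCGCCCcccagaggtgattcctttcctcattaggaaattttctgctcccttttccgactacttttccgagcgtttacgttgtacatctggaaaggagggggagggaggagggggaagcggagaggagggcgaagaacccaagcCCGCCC
Itgb1: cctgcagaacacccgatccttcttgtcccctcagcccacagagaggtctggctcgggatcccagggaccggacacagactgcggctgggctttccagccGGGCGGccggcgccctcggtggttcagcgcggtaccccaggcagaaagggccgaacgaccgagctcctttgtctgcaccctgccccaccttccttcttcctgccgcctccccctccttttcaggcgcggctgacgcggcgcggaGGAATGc
Tes: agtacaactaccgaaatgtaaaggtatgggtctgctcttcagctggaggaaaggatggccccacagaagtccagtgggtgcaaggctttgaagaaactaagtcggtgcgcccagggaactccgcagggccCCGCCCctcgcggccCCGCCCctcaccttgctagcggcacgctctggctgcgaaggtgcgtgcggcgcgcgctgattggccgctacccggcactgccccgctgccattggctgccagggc
The motifs searched were GGGCGG (Sp1), TGANTCA (AP-1), GGAATG (TEAD), the CArG box of SRF and the NF-kB motif. Itga5 and Tes each held 2 Sp1 matches, Itgb1 held 1 Sp1 and 1 TEAD match, and no match overlapped another. Sp1 matches were in 32.7% of all 32851 promoters and in 15 of the 31 promoters found for 26 of the measured genes. TEAD matches were in 12.6% of all promoters and in 3 of the 31, AP-1 in 6.75% and 2, NF-kB in 7.25% and 4, and CArG boxes in 1.47% and 3 (Fermt2, Itgb6 and Vcl). A match describes letters in the window and is no binding site.

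Among the collagen and laminin receptors, Itga7 was the only gene of the 37 whose groups did not overlap; among all genes 4.54% did not overlap (2.38% higher, 2.15% lower). Itga7, a laminin receptor chain best known in skeletal and smooth muscle, was at 7.63, 7.98, 7.91, 8.79 and 8.17 with stretch and at 6.92, 7.14, 7.32 and 7.62 without. The gap between the groups was narrow, 7.63 in stretch replicate 1 against 7.62 in no-stretch replicate 4. The difference was 0.85 (0.33 to 1.37), 1.80-fold, with limma adjusted p = 0.165, and without single arrays it lay between 0.67 and 0.97. The 7 skeletal muscle markers ran from -1.72 to 0.39 across the stretch arrays, as a mean log2 level relative to the no-stretch mean. Without stretch they ran from -0.34 to 0.33, and 1 of the 7 had a positive difference. The value of -1.72 was that of stretch replicate 1 alone, also the lowest stretch array for Itga7. On the other stretch arrays the skeletal muscle list lay between -0.17 and 0.39. The 7 smooth muscle and pericyte markers ran from -0.27 to 0.17 with stretch and from -0.11 to 0.15 without, 3 of 7 positive. None of either list had an unadjusted p under 0.05. The lowest single value of any gene was 10.85 in the skeletal muscle list and 4.02 in the smooth muscle and pericyte list. Over all marker lists described here it was 2.35, in the platelet list. Whether the dim markers were above background was not assessed.

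Itga2, the alpha chain of a collagen receptor of keratinocytes and platelets, was at 8.68, 8.48, 8.05, 8.59 and 8.53 with stretch and at 8.06, 8.04, 7.29 and 7.78 without. Only stretch replicate 3 dipped to the level of the highest no-stretch array. The difference was 0.67 (0.23 to 1.12), 1.59-fold, with limma adjusted p = 0.195. Itga11, a collagen receptor chain of fibroblasts, lay between 3.94 and 5.14 with stretch and between 4.30 and 4.77 without, with a difference of -0.11 (-0.62 to 0.40).

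Itga6 and Itgb4 form the laminin receptor of the hemidesmosome, which anchors basal keratinocytes. Itga6 was at 14.23, 14.41, 13.48, 13.69 and 14.00 with stretch and at 13.54, 13.73, 12.26 and 13.24 without. No-stretch replicate 3 lay almost 1 log2 unit below the next array, and the groups overlapped. The difference of Itga6 was 0.77 (0.12 to 1.42; limma adjusted p = 0.303), and 0.46 without no-stretch replicate 3. Its partner Itgb4 ranged from 9.34 to 10.76 with stretch and from 9.10 to 10.21 without, a difference of 0.40 (-0.27 to 1.07). Itga3, a laminin receptor chain of keratinocytes that pairs with Itgb1, was at 9.81, 9.91, 9.58, 10.34 and 10.02 with stretch and at 9.02, 10.27, 8.26 and 9.19 without. No-stretch replicate 2 thus lay above 4 of the 5 stretch arrays. The difference of Itga3 was 0.75 (0.03 to 1.47; limma adjusted p = 0.368), and 0.44 without no-stretch replicate 3.

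Of 7 hemidesmosome partner genes 5 were measured, all with a positive difference and none past the threshold. The largest differences were in Lama3 and Lamb3, chains of the anchoring laminin that these receptors bind, at 1.22 and 1.05 (limma adjusted p = 0.084 and 0.231). Col17a1, the transmembrane collagen of the hemidesmosome, differed by 0.41. The 7 basal keratinocyte markers, which share Col17a1, Lama3 and Lamb3 with that list, ran from -0.32 to 0.46 with stretch and from -0.34 to 0.19 without. The 4 positive differences among those markers were the 3 shared genes and Krt14. Lama3, Lamb3 and Krt14, 3 of the 7 (42.9%), had an unadjusted p under 0.05. Among all genes 13.0% reached that level, 6.92% higher. The other unshared markers went apart from Krt14 (0.56): the keratins Krt5 and Krt15 differed by -0.08 and -1.16, and Trp63, the transcription factor p63 of basal cells, by -0.60. All 6 suprabasal keratinocyte markers were negative, at -1.47 to -0.18 with stretch and -0.36 to 0.30 without. The part of keratinocyte number in the values of Itga6, Itga3 and Itgb4 was not tested.

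Itga9, an alpha chain that binds tenascin C and VCAM-1, was at 8.48, 7.61, 7.26, 8.10 and 8.37 with stretch and at 7.31, 7.40, 7.10 and 7.58 without. Of the stretch arrays 4 lay above every no-stretch array, and stretch replicate 3 lay among the no-stretch arrays. The difference was 0.61 (0.06 to 1.16), 1.53-fold, with limma adjusted p = 0.33.

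**Figure D3:**
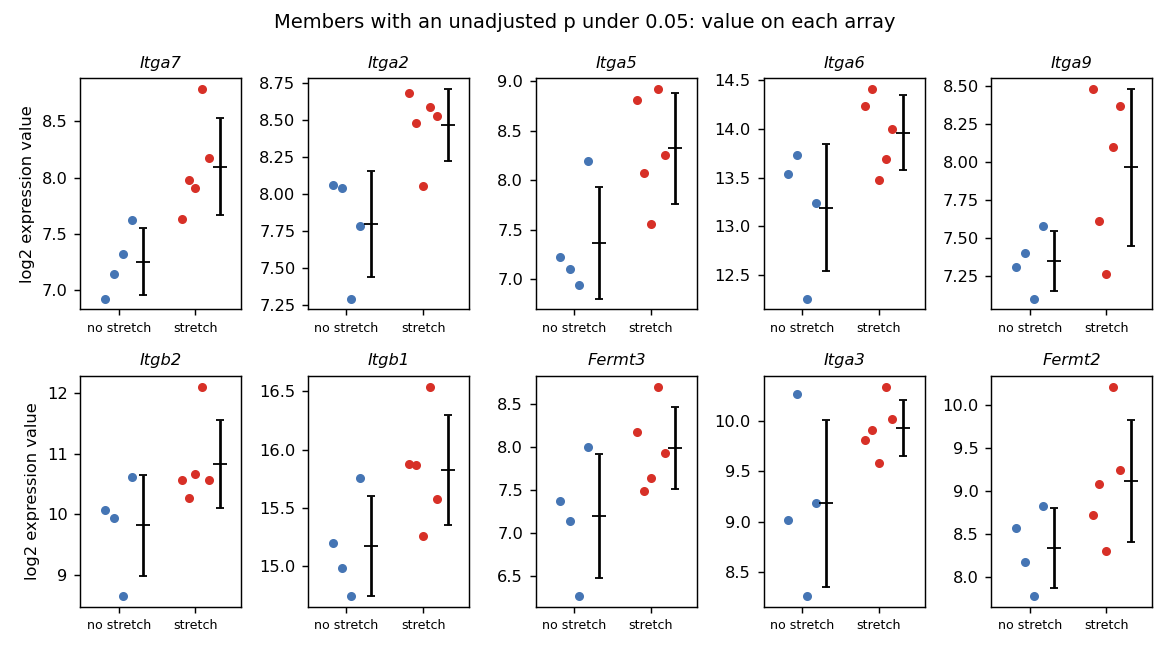
Log2 expression value (vertical axis, its range differing between panels) of the 10 genes with an unadjusted p under 0.05, with a point for each of 4 no-stretch (blue) and 5 stretch (red) arrays and the group mean ± SD beside them. In the Itga7 panel alone the groups do not overlap, by 7.63 against 7.62.

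The alpha-v chain Itgav and its beta partners Itgb3, Itgb5, Itgb6 and Itgb8, chains of receptors for the RGD sequence, gave small or negative differences. Itgav, which also pairs with Itgb1 (described above), ranged from 9.05 to 10.19 with stretch and from 9.58 to 10.42 without, a difference of -0.28 (-0.89 to 0.33). Itgb3 differed by 0.03 (-0.51 to 0.58) and Itgb5, a vitronectin receptor chain, by 0.04 (-0.46 to 0.55), and both turned negative after quantile normalization. Itgb6 and Itgb8, which with Itgav release active TGF-beta from its latent complex, differed by -0.12 (-0.61 to 0.37) and -0.37 (-1.30 to 0.56). Itgb8 reached 9.75 in stretch replicate 3 but lay between 7.64 and 8.45 in the other stretch arrays. Itga8, a nephronectin receptor chain of contractile cells, differed by 0.04 (-0.39 to 0.47). Such intervals do not show that the genes were level: for Itgb8 they span differences from -1.30 to 0.56.

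Itga2b, the platelet fibrinogen receptor chain, had the most negative difference of the 37, at -0.53 (-1.22 to 0.16; limma adjusted p = 0.513). It was at 7.08, 7.08, 6.63, 6.98 and 7.16 with stretch and at 7.16, 6.68, 8.58 and 7.65 without, so no-stretch replicate 3, the lowest array for many genes here, was the highest for Itga2b. Without that array the difference was -0.18. The 6 measured platelet markers ran from -0.25 to 0.54 with stretch and from -0.40 to 0.20 without, with 2 of 6 positive. The platelet chemokines Pf4 and Ppbp were those 2, higher by 1.52 and 1.27 (limma adjusted p = 0.312 and 0.135). Ppbp was dim, between 2.39 and 2.76 without stretch and at percentile 15.9 of all genes. The platelet markers Gp5, Gp6 and Treml1 were dim as well, at the percentiles 3.4, 16.9 and 16.4. Gp9, a subunit of the platelet receptor for von Willebrand factor, was lower by 0.67 (difference -0.67; limma adjusted p = 0.376).

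The 8 leukocyte integrins had a median of 0.24, with 6 positive. Of the 8, 1 (12.5%) had an unadjusted p under 0.05, and it was higher. That is no more than the 13.0% of all genes in either direction, of which 6.92% were higher. That gene was Itgb2, the shared beta chain of LFA-1 (with Itgal), Mac-1 (with Itgam) and the receptors with Itgax and Itgad. Itgb2 was at 10.57, 10.26, 10.66, 12.11 and 10.56 with stretch and at 10.07, 9.93, 8.64 and 10.61 without. Its difference was 1.02 (0.09 to 1.95), 2.03-fold, with limma adjusted p = 0.34. Stretch replicate 4 was the high extreme and no-stretch replicate 3 the low one, and no-stretch replicate 4 lay above 3 of the stretch arrays. Without no-stretch replicate 3 the difference was 0.63.

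Itgam, the alpha chain of Mac-1 on neutrophils, monocytes and macrophages, was at 13.36, 13.68, 13.21, 15.37 and 13.85 with stretch and at 12.66, 13.65, 11.89 and 13.72 without. Its difference was 0.92 (-0.11 to 1.95; limma adjusted p = 0.44), and 0.55 without stretch replicate 4 or without no-stretch replicate 3. The same 2 arrays were thus the extremes for both chains of Mac-1. Itgal, the LFA-1 chain of T cells and other leukocytes, ranged from 7.02 to 7.85 with stretch and from 6.81 to 7.97 without, a difference of -0.05 (-0.61 to 0.52).

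Itgae, which pairs with Itgb7 to hold resident T cells and some dendritic cells to E-cadherin, differed by -0.37 (-1.01 to 0.27), with its highest value, 5.92, in no-stretch replicate 2. Itgb7 was higher by 0.31 (-0.12 to 0.74). Itgax, a chain of dendritic cells and macrophages, differed by 0.18 (-0.27 to 0.62), and Itga4, which binds VCAM-1, by 0.03 (-0.36 to 0.42), a value that turned negative after quantile normalization. Itgad, a chain of some macrophages, was at 3.84, 3.47, 3.45, 4.21 and 3.92 with stretch and at 3.20, 3.56, 3.56 and 3.55 without, so stretch replicates 2 and 3 lay within the no-stretch range. Its difference was 0.31 (-0.11 to 0.73). Itgad, Itga11, Itgax and Itgae were dim, with mean values at the percentiles 21.6, 34.3, 36.2 and 36.6 of all genes. Whether they were above background was not assessed.

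**Figure D4:**
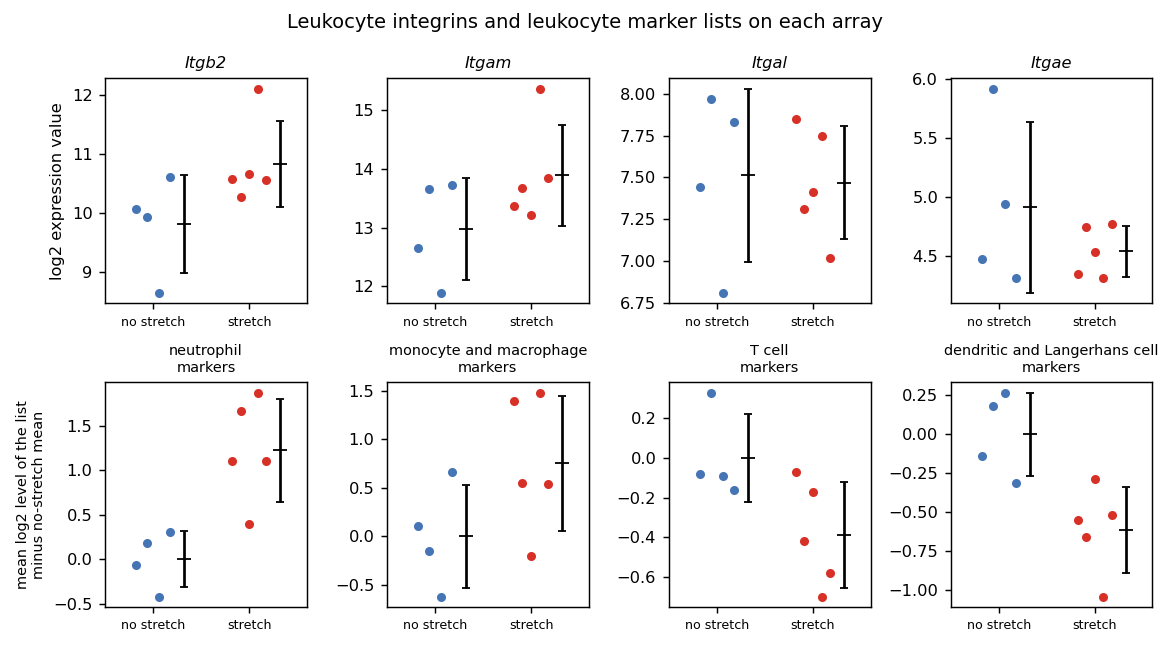
Upper row: log2 expression value of 4 leukocyte integrins; lower row: mean log2 level of 4 leukocyte marker lists, relative to the no-stretch mean, with a point for each of 4 no-stretch (blue) and 5 stretch (red) arrays and the group mean ± SD beside them. Itgb2 and Itgam peak in stretch replicate 4, at 12.11 and 15.37, where the neutrophil list is also highest, at 1.87.

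Markers of the cells that carry these integrins differed between the groups as well. Of 10 measured neutrophil markers 9 had a positive difference, and the list ran from 0.39 to 1.87 with stretch and from -0.42 to 0.30 without. Camp, Ngp, Ltf and Elane among those 9 were dim, with means at the percentiles 10.0, 10.6, 17.4 and 28.1 of all genes. Their differences were 0.13, 0.40, 0.16 and 0.02. The other positive markers, Retnlg, Mmp8, Csf3r, Stfa2l1 and Cxcr2, differed by 4.54, 2.715, 1.89, 1.81 and 0.96. The 1 negative neutrophil marker, Mpo, differed by -0.39 and was at percentile 28.8. Of 9 monocyte and macrophage markers 8 were positive, with ranges of -0.20 to 1.48 and -0.62 to 0.66. All 10 dendritic and Langerhans cell markers but 1 were negative, at -1.04 to -0.29 with stretch and -0.31 to 0.26 without, and all 9 T cell markers were negative, at -0.70 to -0.07 and -0.16 to 0.33. Of the T cell markers, Zap70 was dim, at percentile 4.8, and Cd3d differed by only -0.008. Dim dendritic and Langerhans cell markers were Clec9a, Flt3, Zbtb46, Cd209a and Xcr1, at the percentiles 5.7, 15.0, 18.3, 26.9 and 28.6. Clec9a was the positive marker of that list, and Zbtb46 differed by only -0.02. None of these markers passed over all genes. Stretch replicate 4 had the highest neutrophil and macrophage levels and no-stretch replicate 3 the lowest, as for Itgb2 and Itgam; the part of cell number in those values was not tested.

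The counter-receptors of the leukocyte integrins gave 6 positive and 7 negative differences among 13 measured genes, with a median of -0.08 and none past the threshold. Icam1, the endothelial ligand of LFA-1 and Mac-1, was between 8.19 and 8.73 with stretch and between 7.69 and 8.04 without, so its groups did not overlap. Its difference was 0.59 (0.22 to 0.96; limma adjusted p = 0.173). Vcam1, the ligand of Itga4 integrins, differed by 1.01 (0.22 to 1.80; limma adjusted p = 0.258), and Fgb, a fibrinogen chain, by -0.45 (-0.87 to -0.03; limma adjusted p = 0.356).

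The adaptors had 10 positive differences among 13 measured genes and a median of 0.23. At an unadjusted p under 0.05 there were 2 of 13 (15.4%), both higher. That is near the 13.0% of all genes in either direction, of which 6.92% were higher. Without no-stretch replicate 3 that median was -0.0003. Both genes were kindlins, which bind the beta-chain tail and activate integrins together with talin. Fermt3, the kindlin of blood cells, was at 8.17, 7.48, 7.64, 8.70 and 7.93 with stretch and at 7.37, 7.14, 6.26 and 8.00 without. Its difference was 0.79 (0.06 to 1.53; limma adjusted p = 0.35), with the same high and low arrays as Itgb2, and it was 0.48 without no-stretch replicate 3.

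Fermt2, the widely expressed kindlin of fibroblasts and muscle, was at 8.72, 9.08, 8.30, 10.21 and 9.24 with stretch and at 8.57, 8.17, 7.77 and 8.82 without. Stretch replicate 4 lay almost 1 log2 unit above the other arrays. The difference was 0.77 (0.02 to 1.53; limma adjusted p = 0.375), and 0.50 without that array. Fermt1, the kindlin of keratinocytes, went the other way on average, at -0.21 (-0.79 to 0.37).

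Lims1, also known as PINCH, forms a complex with Ilk and Parva that supports the kindlins. It was at 13.02, 13.29, 12.65, 13.90 and 12.93 with stretch and at 12.83, 12.49, 12.33 and 12.94 without, a difference of 0.51 (-0.03 to 1.05; limma adjusted p = 0.418). Its partners differed less: Ilk by -0.12 (-0.54 to 0.30) and Parva by 0.11 (-0.42 to 0.64), the latter reversed to -0.05 without no-stretch replicate 3. The groups overlapped for all 3.

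Tln1, the main talin, was at 15.42, 15.51, 15.11, 15.93 and 15.01 with stretch and at 14.76, 15.04, 14.78 and 15.44 without, a difference of 0.39 (-0.10 to 0.88). Tln2 differed by 0.10 (-0.49 to 0.68). For the proteins that link integrins to actin, the differences were 0.23 for Zyx (-0.21 to 0.66), 0.14 for Flna (-0.46 to 0.74) and -0.08 for Vcl (-0.52 to 0.36). Flna turned negative after quantile normalization. Pxn, the paxillin scaffold, differed by 0.34 (-0.58 to 1.26) and by -0.04 without no-stretch replicate 3, where it was at 7.00 against 8.47 to 8.63 in the other no-stretch arrays. The kinase gene Src differed by 0.29 (-0.16 to 0.74).

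Beyond these adaptors, 31 of 35 other focal adhesion genes were measured, with a median of 0.16 and 17 positive. An unadjusted p under 0.05 was reached by 32.3% of the 31, 6 higher and 4 lower, against 13.0% of all genes (6.92% higher, 6.07% lower). Of the 31, 1 passed over all genes, where 0.246% of all genes passed (0.082% higher), and it rose. Tes, testin, a zyxin-binding LIM protein, was at 8.81, 7.99, 8.23, 8.88 and 7.91 with stretch and at 6.94, 7.30, 6.78 and 7.03 without, with no overlap. The rise was 1.35 (0.84 to 1.86), 2.55-fold, with limma adjusted p = 0.045. Among the 9 fits without 1 array Tes passed in 1, without stretch replicate 3 (adjusted p = 0.037), and its adjusted p ran up to 0.148 in the others, although the difference stayed between 1.22 and 1.46. Flnc, the filamin of muscle, differed by 1.17 (limma adjusted p = 0.132) and Tns4, an epithelial tensin, by -1.15 (limma adjusted p = 0.138).

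The matrix proteins that integrins bind held the remaining genes of the pathway lists past the threshold. Of 19 measured ligands 10 had a positive difference and 9 a negative one, and 2 passed over all genes, where 0.246% of all genes passed. At an unadjusted p under 0.05 there were 13 ligands (68.4%), 7 higher and 6 lower, against 13.0% of all genes (6.92% higher, 6.07% lower). Fn1, fibronectin, the ligand of the Itga5 receptor, was at 12.61, 13.68, 12.32, 13.39 and 12.50 with stretch and at 15.01, 14.12, 14.81 and 14.96 without. It fell by 1.83 (difference -1.83, 95% confidence interval -2.49 to -1.16), 3.55-fold, with limma adjusted p = 0.038. All 5 stretch arrays lay below all 4 no-stretch arrays for Fn1, whereas 3 of the 5 lay above all no-stretch arrays for Itga5 and for Itgb1. Without 1 array Fn1 passed in 1 of 9 fits, without stretch replicate 3 (adjusted p = 0.035), and its adjusted p ran up to 0.148, with a difference between -2.03 and -1.68.

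Nid1, nidogen, which joins laminin to type IV collagen in the basement membrane, was between 10.55 and 11.07 with stretch and between 12.21 and 12.34 without. It fell by 1.44 (difference -1.44, 95% confidence interval -1.78 to -1.11; limma adjusted p = 0.0087) and passed in all 9 fits without 1 array. Other ligands of the dermis were lower without passing: Col1a2 differed by -0.82 (limma adjusted p = 0.077) and Col1a1 by -0.88 (limma adjusted p = 0.165). The type IV collagen chains Col4a1 and Col4a2 were higher without passing, by 0.80 and 0.84 (limma adjusted p = 0.135 and 0.177). The 7 measured fibroblast markers, which share Col1a1, Col1a2 and Col3a1 with the ligands, were all negative, at -1.10 to -0.78 with stretch and -0.10 to 0.18 without, and 1 of them, Dpt, passed over all genes; the part of fibroblast number in the values of Fn1 was not tested. Tnc, tenascin C, a ligand of Itga9, differed by 2.11 (limma adjusted p = 0.236).

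**Figure D5:**
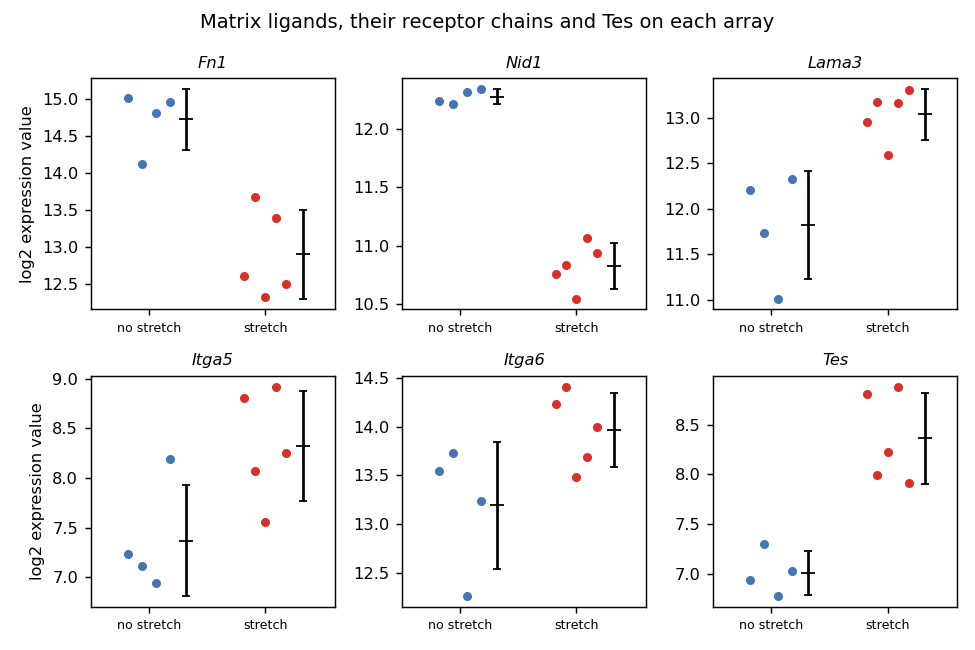
Log2 expression value (vertical axis, its range differing between panels) of 3 matrix ligands, 2 receptor chains and Tes, with a point for each of 4 no-stretch (blue) and 5 stretch (red) arrays and the group mean ± SD beside them. Fn1 and Nid1 are lower on every stretch array, Tes and Lama3 higher on every stretch array, and Itga5 and Itga6 overlap between the groups.

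Of 12 measured regulators that switch integrins on or off from inside the cell, 10 had a positive difference, with a median of 0.37, and none passed. Rap1a and Rap1b, the small GTPases that recruit talin, differed by 0.68 (0.20 to 1.17; limma adjusted p = 0.225) and 0.72 (0.16 to 1.28; limma adjusted p = 0.252). Cytip, a leukocyte protein that restrains adhesion through cytohesin-1, differed by 1.05 (0.44 to 1.66; limma adjusted p = 0.145).

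SRF, a transcription factor, and YAP, a transcriptional co-activator, respond to actin tension and cell spreading. Among 13 measured targets of SRF and YAP 9 had a positive difference, with a median of 0.13, and none passed. Ankrd1, a muscle-enriched ankyrin repeat protein, was between 12.58 and 16.25 with stretch and between 10.51 and 12.23 without, a difference of 3.22 (1.91 to 4.54; limma adjusted p = 0.054). Axl, a receptor kinase, differed by -0.91 (-1.39 to -0.42; limma adjusted p = 0.12) and Ccn1, a matricellular integrin ligand, by 1.17 (0.35 to 1.99; limma adjusted p = 0.217).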

How the data were processed

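Gene expression was measured on 9 Affymetrix arrays from biotin-labelled cRNA of mouse back skin. The deposited values are log2 expression values for 22206 features, made by the authors with RMA and Transcriptome Analysis Console (no version stated), per the submitters' processing notes. Background adjustment and probe summarization of this kind compress low values and their differences. The genome build was not given in the sources used here. Scanner intensities were not used here, and precision is limited by how few arrays there are; these genes' differences had a median standard error of 0.251. Array medians lay between 5.81 and 5.99.

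Samples were grouped by title. Of the features 19572 carried 1 gene symbol and 2634 none here; platform symbols, looked up again by Entrez identifier in RefSeq (GRCm38.p6), were unaltered. The feature with the highest mean over the arrays stood for each of 19505 genes (55 had several features, none of them a gene of this list). No 2 arrays were identical, and no gene of the list shared its values with another gene. Differences, intervals and two-sided p-values came from limma 3.58.1 (lmFit, then eBayes; R 4.3.3) with no covariate, adjusted by Benjamini-Hochberg over all genes at 0.05. The fit was checked on simulated data. Gene lists are described by counts and medians, without a test, and list levels are means of log2 values per array. All 40 genes are accounted for; those at an unadjusted p under 0.05, and at least 3 per class by smallest p, are given on every array, and of each pathway list those past the threshold and up to 3 by smallest p. Further genes named in the text (Krt14, Krt5, Krt15, Trp63, Acta1, Col17a1, Col1a1, Tnc, Pf4, Ppbp and Gp9) were chosen after their values were seen. So were Gp5, Gp6, Treml1, Camp, Ngp, Ltf, Elane, Zap70 and Cd3d. The same holds for Retnlg, Mmp8, Csf3r, Stfa2l1, Cxcr2, Mpo, Clec9a, Flt3, Zbtb46, Cd209a, Xcr1, Tek, Vwf, Col4a1 and Col4a2. The genes and lists were chosen with earlier results of these data known.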

Additional observations from a re-analysis of the deposited data

Results flagged for a closer look

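In 74 groups of 4 or 5 arrays (each measured gene in each group), 7 values lay far from the rest of their group by Dixon's criterion at the 95% level, where chance marks about 1 group in 20. In no-stretch replicate 3, Pxn was at 7.00 (next array 8.47) and Parva at 8.06 (next 8.71). In stretch replicate 4, Itgb2 was at 12.11 (next 10.66). In stretch replicate 1, Itgb5 was at 11.16 (next 10.70) and Itgb6 at 8.13 (next 8.89). In stretch replicate 5 Itga8 was at 4.93 (next 5.59), and in no-stretch replicate 1 Itgad was at 3.20 (next 3.55). Those in no-stretch replicate 3 fall on an array that stood apart over the whole platform.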

How the results depend on the processing

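No gene of the list passed in any of 19 alternative limma fits, nor at an adjusted p under 0.1 in the report's own fit. The count at an unadjusted p under 0.05 was 10, ran from 3 to 13 without single arrays, and was 6 with array weights and 2 without the pair of arrays of lowest weight, an alternative chosen after seeing the data like this count itself. The count of genes whose groups do not overlap was 1 (4.54% of all genes did not overlap), and 2 after median centring. No count without single arrays is given here, but it rested on them. With no-stretch replicate 4 set aside, the lowest stretch value lay above the other no-stretch arrays for Itga5 (7.56 against 7.23) and Itgb1 (15.26 against 15.20). The same held for Itgb2 (10.26 against 10.07) and Fermt3 (7.48 against 7.37). That array was singled out after the values were seen, since it alone overlapped the stretch arrays for these genes. Leaving out any array can only keep or add genes whose groups do not overlap. The share of all genes that did not overlap without that array is not given here. The 4.54% is for all arrays and is no measure for this comparison. All 10 genes at an unadjusted p under 0.05 kept a positive difference in the 19 fits, and 12 of the 37 genes turned sign in at least 1. Without single arrays the ranges of these were -0.038 to 0.16 (Itga4), -0.28 to 0.11 (Itgal), -0.021 to 0.20 (Itga8), -0.28 to 0.019 (Itga11), -0.11 to 0.22 (Itgb3), -0.15 to 0.22 (Itgb5), -0.22 to 0.051 (Itgb6), -0.039 to 0.28 (Tln2), -0.22 to 0.093 (Vcl), -0.039 to 0.57 (Pxn), -0.051 to 0.34 (Flna) and -0.055 to 0.23 (Parva). Quantile normalization gave -0.050 for Itga4, -0.0050 for Itgb3, -0.045 for Itgb5 and -0.0016 for Flna. Array weights gave -0.028 for Itga8, -0.0047 for Itgb3 and -0.0061 for Itgb5. Without the pair of arrays of lowest weight the values were -0.018 for Itga8, -0.038 for Itgb3, -0.022 for Itgb5, 0.047 for Itgb6, -0.17 for Flna and -0.071 for Parva. The cause of these turns was not tested.

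Same-numbered arrays correlated in their deviations from the group means at -0.0621, -0.018, 0.0644 and 0.343, so the labels' replicate numbers are taken as shared numbers and no pairing. With the replicate number as a block, in which stretch replicate 5 drops out of the comparison, 0 genes passed, 12 had an unadjusted p under 0.05, Itga4 was at -0.025 and Itgal at 0.066. In that fit Fn1 did not pass (adjusted p = 0.061), and Tes did not pass when all 22206 features were adjusted together (adjusted p = 0.053). Median differences of the classes stayed between 0.18 and 0.34 (leukocyte), 0.15 and 0.37 (matrix-binding) and -0.0003 and 0.34 (adaptors). Itgad has no value with dim genes left out. Levels near the array's floor limit what can be seen for the dimmest genes.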
